A study of Mus musculus with 2 samples.

Results

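Retinoid receptors and binding proteins carry the vitamin A signal from the blood to the genes it acts on. The 9 genes described here are Rbp4, Stra6, Crabp1, Crabp2, Rara, Rarb, Rarg, Rxra and Rxrg. They were chosen by gene name on the array, with earlier results of these data known. They were read by 13 of the 39429 probes and stand among 21978 genes tested. All 9 were measured, and all 13 probes were well above background in all 4 channels.

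RNA came from ureters dissected from NMRI mouse embryos at stage E14.5. The genotype called Bmp4cKO was Tbx18(cre/+);Bmp4(fl/fl), in which cre, expressed from the Tbx18 locus, recombines both floxed Bmp4 alleles where Tbx18 is active, and in which 1 Tbx18 allele carries cre. Controls were Tbx18(+/+);Bmp4(fl/?), which have no cre and at least 1 floxed Bmp4 allele. Each of 2 two-colour arrays carried 1 Bmp4cKO RNA and 1 control RNA, both labelled female on array 1 and both labelled male on array 2, with Bmp4cKO in green on array 1 and in red on array 2. No source used here says whether an RNA was from a single embryo or pooled embryos. The p-values combine the spread between these 2 arrays with a variance shared over all genes (1 residual and 4.03 prior degrees of freedom). They measure no spread beyond these 2 arrays.

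Retinol travels in blood bound to the carrier RBP4, and cells can take it up through the membrane receptor STRA6. Enzymes inside the cell oxidise it to retinoic acid, which the small proteins CRABP1 and CRABP2 bind in the cytoplasm. Retinoic acid acts through the nuclear receptors RARA, RARB and RARG, which bind DNA as heterodimers with an RXR at paired repeats of a short sequence. In the developing ureter, retinoic acid signalling is known to hold back the differentiation of mesenchymal and epithelial progenitors. Rarb, Stra6 and Crabp2 are also known to respond to retinoic acid in other tissues and cells.

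The labels could not be taken at face value. Bmp4, the gene that the Bmp4cKO genotype removes, had normalised signals of 75598 and 61938 in the RNAs labelled Bmp4cKO on arrays 1 and 2, against 9191 and 4719 in the RNAs labelled control. Its mean log2 ratio was 3.38 ± 0.48 (SD, n = 2 arrays; limma adjusted p = 0.016), opposite to the genotype on the label. The probe lies at chr14:47003391-47003450 in mm9, and no source used here says whether the floxed stretch includes it. A second Bmp4 probe, at chr14:47003198-47003257, was well above background in 0 channels. Its log2 ratios were 0.06 and 0.10, so the check rests on 1 probe. Tbx18 moved the same way, and its mean log2 ratio was 0.97 ± 0.17 (SD, n = 2 arrays; limma adjusted p = 0.040). Xist, transcribed from the inactive X, had 5228 on array 1 and 3757 on array 2 in the RNA labelled Bmp4cKO, against 5758 and 232 in the RNA labelled control, so at least 1 sex label of array 2 did not match. In the table of values deposited by the authors, where a negative fold is a fall, the signs were reversed. There the brighter Bmp4 probe read -8.16 on array 1 and -13.88 on array 2, a fall in Bmp4cKO. Tbx18 read -1.95 and -2.04 there, while Stra6 read 1.88 and 1.75. Which sign is the right one was not tested. Directions below follow the dye labels. A gene called higher moved with Bmp4 and a gene called lower moved against it, and all directions turn together if the dye labels are exchanged.

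Each gene was read first on its brighter probe. There the mean log2 ratios of the nuclear receptors lay between -0.11 and 0.14, and those of the carrier, the uptake receptor and the cytoplasmic binding proteins were larger in size and of both signs. The dimmer probe of Rxrg gave -0.63, which is larger in size than the ratios of Crabp1 and Crabp2. Stra6 was lower, with a mean log2 ratio of -0.87 ± 0.13 (SD, n = 2 arrays; limma adjusted p = 0.046), and was the only one of the 9 genes to pass. By the same test 1.91% of all genes passed, 0.887% higher and 1.02% lower. Rbp4 and Crabp1 had positive ratios and Crabp2 a negative ratio on both arrays, and each missed the threshold. At an unadjusted p under 0.05 in limma, Rbp4 and Crabp1 were higher, against 7.15% of all genes, and Stra6 and Crabp2 were lower, against 7.37%. For the same 4 genes the signals of the RNAs labelled Bmp4cKO and control did not overlap, against 38.4% of all genes. Neither direction prevailed among the 9 genes. On both arrays 3 were higher, 3 were lower, and the 3 RAR genes changed sign between arrays on these probes, while 58.8% of all genes kept their sign. The median log2 ratio was -0.08, against -0.0092 over all genes tested, and none was changed at least 2-fold on both arrays, against 1.2% of all genes (0.578% higher and 0.619% lower).

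**Figure D1:**
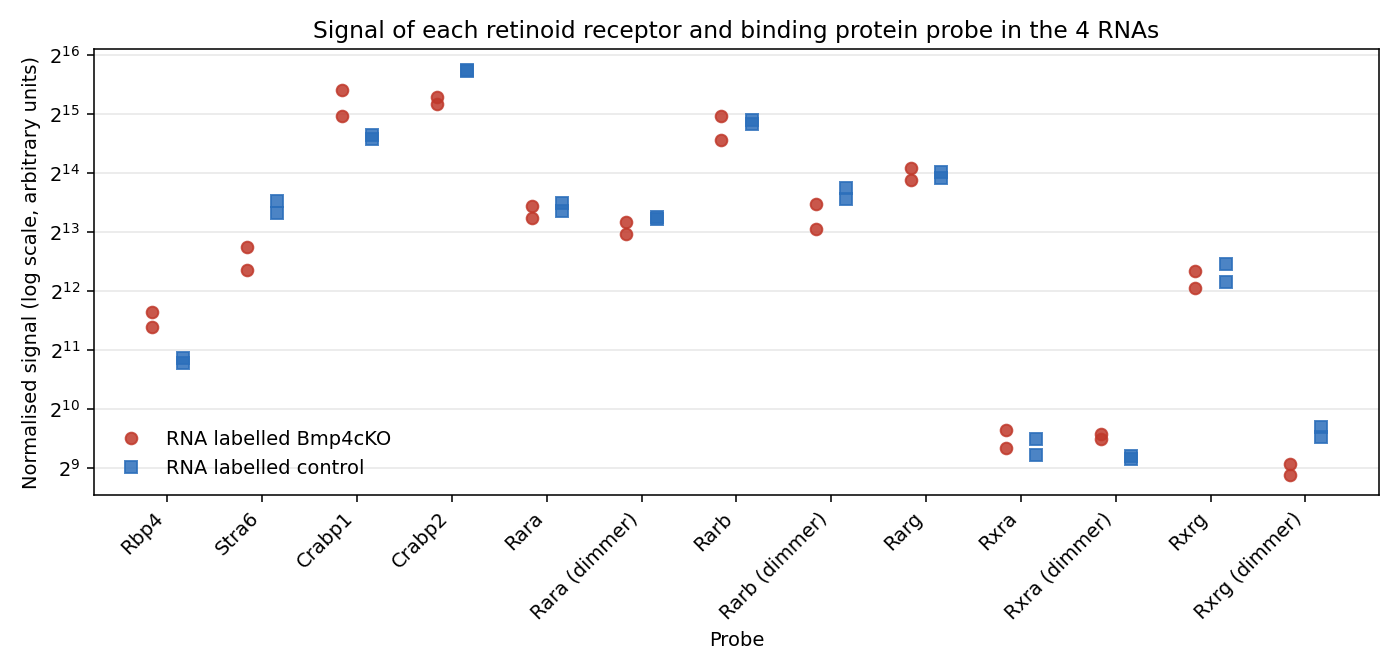
Normalised signal (log scale, arbitrary units) of each of the 13 probes, with the 2 RNAs labelled Bmp4cKO as red circles on the left and the 2 labelled control as blue squares on the right. The 2 labels separate without overlap for Rbp4, Stra6, Crabp1 and Crabp2 and for the dimmer probes of Rara, Rarb, Rxra and Rxrg. Of all genes 38.4% separate in this way. Levels of different probes are not comparable.

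Stra6 encodes the cell-surface receptor that takes retinol from RBP4. Its normalised signal was 5241 on array 1 and 6838 on array 2 in the RNAs labelled Bmp4cKO, against 10244 and 11751 in the RNAs labelled control. Both control values lay above both Bmp4cKO values. The log2 ratios were -0.97 and -0.78 on the 2 arrays, which makes Stra6 1.83-fold lower with a 95% interval of the mean log2 ratio from -1.19 to -0.56 (limma). This difference was larger than that of 97.4% of the genes tested. The probe lies at chr9:58001701-58001760 in mm9. The call was close to the threshold and was lost with the scanner software's processed signals at a limma adjusted p of 0.051, with median centring at 0.40, with no normalization at 1.00 and in fits of the separate channels without the pairing on an array at 0.091 and 0.092, at log2 ratios between -0.87 and -0.84.

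Rbp4 encodes the retinol carrier that STRA6 recognises, made mainly by the liver and by some other tissues. Its signal was 2676 and 3186 in the RNAs labelled Bmp4cKO, against 1873 and 1756 in the RNAs labelled control. The 2 labels did not overlap, and the log2 ratios of 0.51 and 0.86 averaged 0.69 ± 0.24 (SD, n = 2 arrays), 1.61-fold. The limma adjusted p was 0.098, and the 95% interval of the mean ran from 0.33 to 1.04. With a variance prior that follows signal strength the same ratio passed, at a limma adjusted p of 0.028. Its probe lies at chr19:38191120-38191179 in mm9. The signs of the carrier and of its receptor were thus opposite on both arrays.

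CRABP1 and CRABP2 are close relatives that bind retinoic acid in the cytoplasm, and CRABP2 is known to hand it to RARs in the nucleus. Crabp1 had 31976 and 43493 in the RNAs labelled Bmp4cKO, against 24364 and 25538 in the RNAs labelled control. Its log2 ratios were 0.39 and 0.77, with mean 0.58 ± 0.27 (SD, n = 2 arrays; limma adjusted p = 0.15; 95% interval 0.21 to 0.95). Crabp2 had 36833 and 40247 in the RNAs labelled Bmp4cKO, against 55155 and 54426 in the RNAs labelled control. Its log2 ratios were -0.58 and -0.44, with mean -0.51 ± 0.10 (SD, n = 2 arrays; limma adjusted p = 0.14; 95% interval -0.82 to -0.20). In each gene the signals of the 2 labels did not overlap, and the 2 genes went opposite ways on both arrays. Both mean log2 ratios are smaller in size than the smallest one called over all genes, 0.80. The probes lie at chr9:54616192-54616251 for Crabp1 and at chr3:87757207-87757266 for Crabp2 in mm9.

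**Figure D2:**
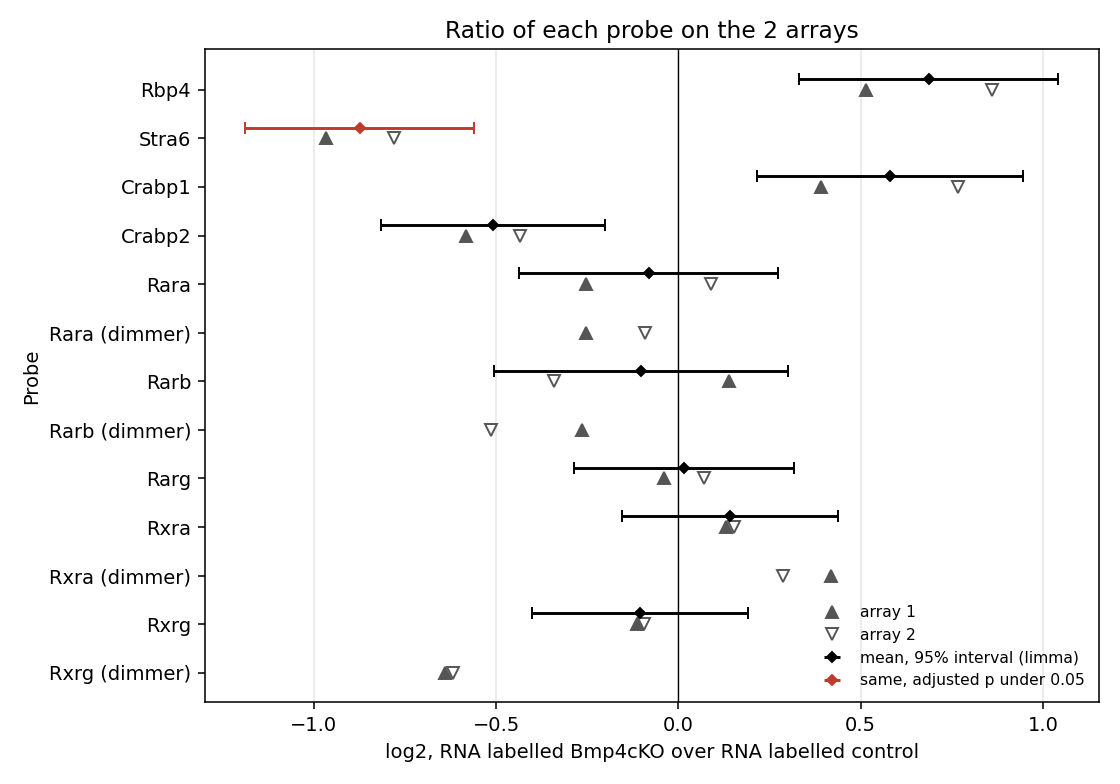
Log2 ratio of Bmp4cKO-labelled over control-labelled RNA for each of the 13 probes, with array 1 as filled and array 2 as open triangles. Diamonds with bars are the mean and its 95% interval from limma for the brighter probe of each gene. Stra6, in red, is the only gene that passed, and the intervals of all 5 nuclear receptor genes include 0.

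The 3 RARs are transcription factors switched by retinoic acid. Rara had 9613 and 11131 in the RNAs labelled Bmp4cKO, against 11450 and 10472 in the RNAs labelled control, with a mean log2 ratio of -0.08 ± 0.24 (SD, n = 2 arrays; limma adjusted p = 0.89). Rarb, the RAR gene whose own transcription responds to retinoic acid, had 32199 and 24136 in the RNAs labelled Bmp4cKO, against 29273 and 30574 in the RNAs labelled control. Its mean was -0.10 ± 0.34 (SD, n = 2 arrays; limma adjusted p = 0.88). Rarg had 15048 and 17395 in the RNAs labelled Bmp4cKO, against 15477 and 16565 in the RNAs labelled control, with mean 0.01 ± 0.08 (SD, n = 2 arrays; limma adjusted p = 0.98). On these brighter probes the signals of the 2 labels overlapped and the arrays disagreed in sign in all 3 genes, which did not hold for the dimmer probes of Rara and Rarb described below. The 95% intervals of the mean log2 ratio ran from -0.44 to 0.27 for Rara, from -0.50 to 0.30 for Rarb and from -0.29 to 0.32 for Rarg. A true mean anywhere within these intervals remains possible with 2 arrays. The intervals are not limits of detection, and the smallest mean log2 ratio called over all genes was 0.80 in size.

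RXRs are the partners that RARs and several other nuclear receptors need to bind DNA. Rxra had 650.1 and 796 in the RNAs labelled Bmp4cKO, against 594 and 716 in the RNAs labelled control. Its mean log2 ratio was 0.14 ± 0.02 (SD, n = 2 arrays; limma adjusted p = 0.70; 95% interval -0.15 to 0.44). Rxrg had 5184 and 4248 in the RNAs labelled Bmp4cKO, against 5614 and 4539 in the RNAs labelled control, with mean -0.11 ± 0.01 (SD, n = 2 arrays; limma adjusted p = 0.80; 95% interval -0.40 to 0.19). On these probes the values of the 2 labels overlapped for both genes, although each gene kept its sign on both arrays.

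Rara, Rarb, Rxra and Rxrg each had 2 probes, and the values above are those of the brighter probe. The Rxrg probes gave the most unlike ratios. The brighter one, at chr1:169569496-169569555 in mm9, averaged -0.11, and the dimmer one, whose start lies 128 bases further along at chr1:169569624-169569683, averaged -0.63 (-0.64 and -0.62 on the 2 arrays; limma adjusted p = 0.079 in the fit over all probes). The dimmer Rxrg probe had 471 and 537 in the RNAs labelled Bmp4cKO, against 735 and 824 in the RNAs labelled control, without overlap. For Rarb the brighter probe, at chr14:17263367-17263426, gave 0.14 and -0.34 on the 2 arrays, and the dimmer one, at chr14:17264648-17264707, gave -0.27 and -0.51. The dimmer Rarb probe had 11405 and 8488 in the RNAs labelled Bmp4cKO, against 13711 and 12121 in the RNAs labelled control, and its mean of -0.39 had a limma adjusted p of 0.27. For Rxra the means were 0.14 at chr2:27615316-27615375 and 0.35 at chr2:27618781-27618839, and for Rara -0.08 at chr11:98835350-98835409 and -0.17 at chr11:98836197-98836256. The dimmer Rxra probe had 760 and 719 in the RNAs labelled Bmp4cKO, against 568 and 589 in the RNAs labelled control, and the dimmer Rara probe had 8016 and 9180 in the RNAs labelled Bmp4cKO, against 9550 and 9790 in the RNAs labelled control. On all 4 dimmer probes the labels did not overlap and both arrays had the same sign. Of all genes, read on the brightest passing probe, 38.4% did not overlap and 58.8% kept their sign. No share over all probes was computed. All 4 probe pairs had means of the same sign, and no nuclear receptor probe passed. The single Rarg probe lies at chr15:102065371-102065430. Which exons or untranslated regions the probes read was not looked up, since no annotation of mm9 was used here.

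**Figure D3:**
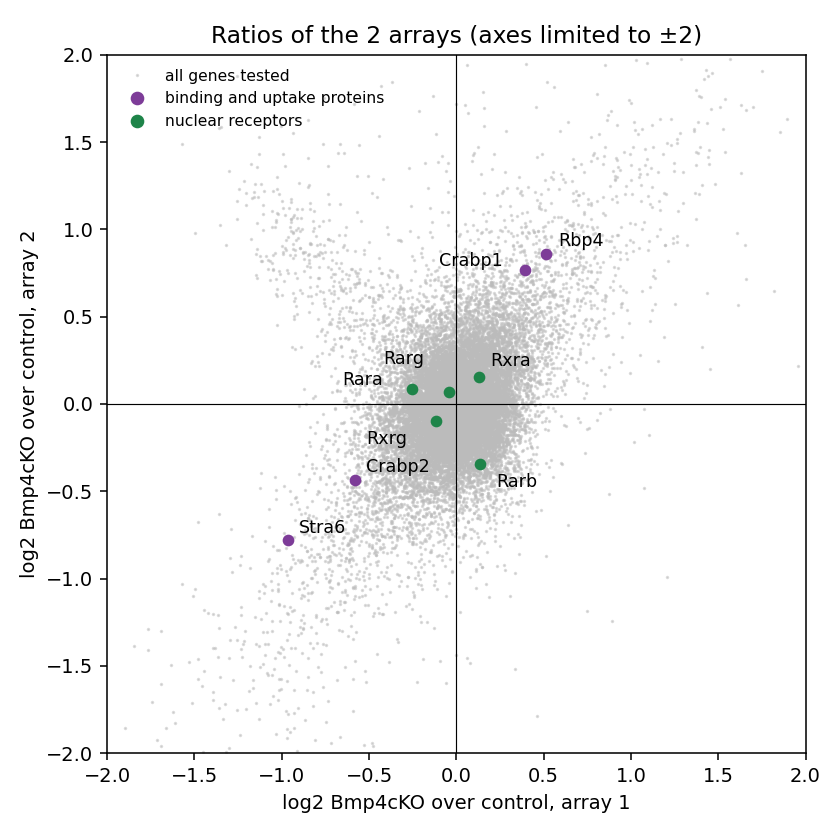
Log2 ratio of Bmp4cKO-labelled over control-labelled RNA on array 2 against that on array 1, for all 21978 genes tested in grey (axes limited to ±2) and for the 9 retinoid genes in colour. Rbp4 and Crabp1 lie in the upper right, Stra6 and Crabp2 in the lower left, and the 5 nuclear receptors near the centre.

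Rarb, Stra6 and Crabp2 were also read as retinoic acid response genes, together with 17 further genes of which 15 were tested. Of the 18 tested, 3 were lower and 0 higher (limma adjusted p under 0.05), against 1.02% and 0.887% of all genes. On both arrays 10 were lower and 4 higher, while 58.8% of all genes kept their sign. The list's median log2 ratio was -0.17, against -0.0092 over all genes. The lower genes were Stra6, Cyp26b1 and Ret, the receptor of the growth factor GDNF. Ret had 280 and 325 in the RNAs labelled Bmp4cKO, against 658 and 727 in the RNAs labelled control, and fell by 1.20 ± 0.05 on the log2 scale (SD, n = 2 arrays; limma adjusted p = 0.025). Cyp26b1, an enzyme that degrades retinoic acid, had 1037 and 1401 in the RNAs labelled Bmp4cKO, against 2005 and 2435 in the RNAs labelled control. Not all response genes went that way. Cyp26a1, a related enzyme, had 850.2 and 420.1 in the RNAs labelled Bmp4cKO, against 321 and 335 in the RNAs labelled control, and its log2 ratios were 1.41 and 0.33 on the 2 arrays (limma adjusted p = 0.24).

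Of 16 genes of retinoid synthesis and breakdown 12 were tested, and 4 were lower and 0 higher (limma adjusted p under 0.05), against 1.02% and 0.887% of all genes. The list's median was -0.34, or -0.11 with no filter on dim probes. The lower genes were Cyp26b1, counted above among the response genes, and the 3 retinaldehyde dehydrogenases that make retinoic acid. Aldh1a2 had 26638 and 25344 in the RNAs labelled Bmp4cKO, against 75534 and 112676 in the RNAs labelled control, a separation of both labels on both arrays. Its log2 ratios of -1.50 and -2.15 were larger in size than those of Stra6, as were those of Aldh1a1 at -1.13 and -1.80 and of Aldh1a3 at -1.59 and -2.55. The lower direction of these genes was known from earlier results of the same arrays.

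In the other lists few genes passed, beside 0.887% higher and 1.02% lower of all genes. At an unadjusted p under 0.05 in limma, 7.15% of all genes were higher and 7.37% lower. Of 13 nuclear receptors that pair with RXRs 11 were tested, with a median of 0.09, or -0.11 on array 1 alone. Pparg, a regulator of urothelial and fat cell genes, was higher at 2.27 ± 0.16 (SD, n = 2 arrays; limma adjusted p = 0.016), and Thrb, a thyroid hormone receptor gene, was lower at -1.34 ± 0.16 (SD, n = 2 arrays; limma adjusted p = 0.023). Of 13 coregulators, the proteins that receptors recruit to activate or silence genes, all were tested and 0 passed, while 1 had an unadjusted p under 0.05. Carm1, which encodes a coactivator that methylates arginines, was at -0.25 (limma adjusted p = 0.44). Of 12 other retinoid and fatty acid binding proteins 9 were tested and 0 passed in limma, while 2 had an unadjusted p under 0.05, with a median of 0.19. Ttr, which encodes transthyretin, which holds RBP4 in blood, was not well above background in either RNA labelled control. Its mean signal in RNA labelled Bmp4cKO was 2.11-fold higher (limma adjusted p = 0.13). The log2 ratios were 0.59 on array 1 and 1.56 on array 2, so the size rests mainly on array 2. The bound set for a dim label equalled this fitted fold and is no least value for each array.

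**Figure D4:**
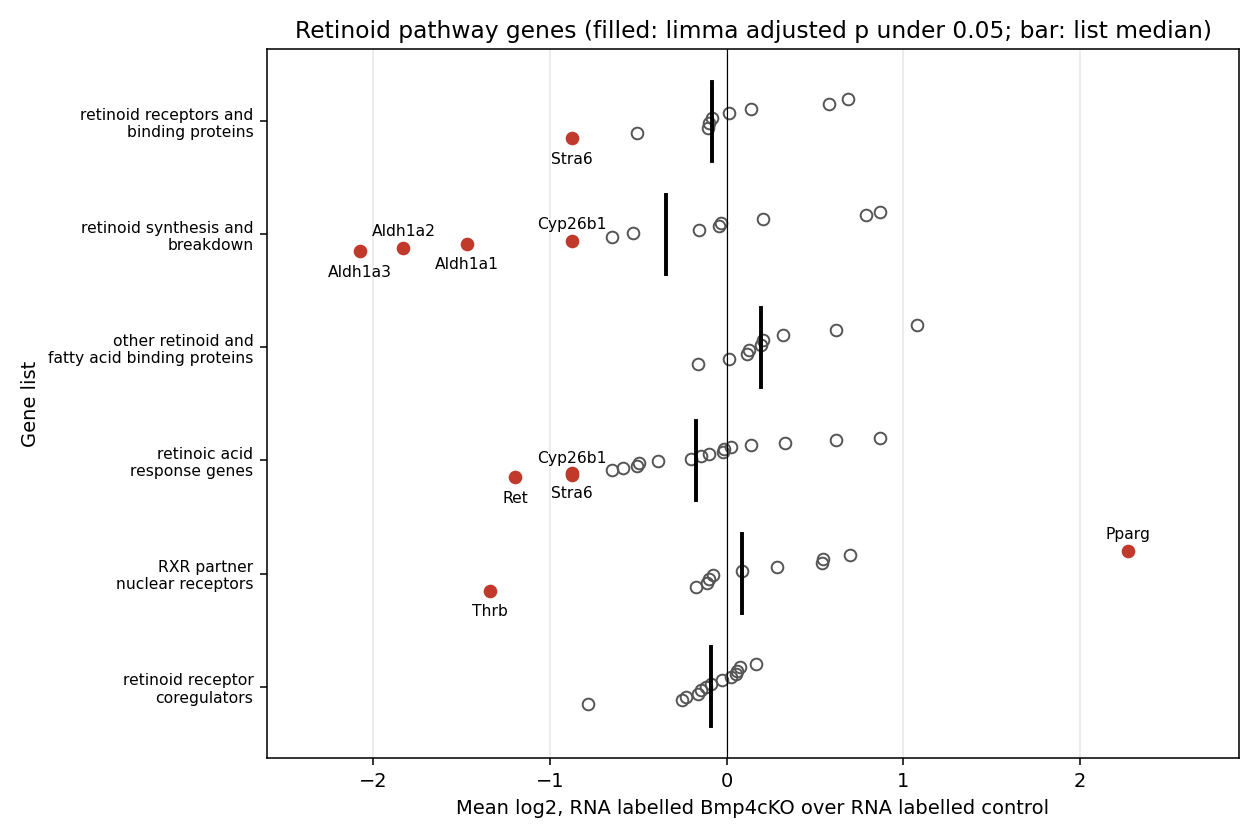
Mean log2 ratio of Bmp4cKO-labelled over control-labelled RNA for every tested gene of the 9 retinoid receptors and binding proteins and of 5 other retinoid lists. Filled points passed limma at an adjusted p under 0.05 and the bars are list medians, which lie between -0.34 and 0.19.

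Markers of other cell types differed between the labels beside these genes. Of 71 genes on 11 marker lists, 68 were tested, and 11 were called higher and 10 lower, each gene counted once. Of all genes 0.887% were called higher and 1.02% lower. Wt1, which was lower, is on the nephron and the mesothelium list. All 10 urothelial genes were tested and 5 were higher, with summed signals of 170734 and 157220 in the RNAs labelled Bmp4cKO, against 91058 and 91909 in the RNAs labelled control. Each sum weighs bright probes most. Krt18, which was not called, gave 82702 and 58347 of these, against 42805 and 44814. All 7 smooth muscle genes were tested and 3 were higher, with sums of 83219 and 106438 in the RNAs labelled Bmp4cKO, against 50735 and 40220.2 in the RNAs labelled control. Of 8 nephron genes 7 were tested and 3 were lower, with sums of 75866 and 59731 in the RNAs labelled Bmp4cKO, against 81118 and 91564 in the RNAs labelled control. Most of these sums came from Eya1, which was not called, at 63797 and 48250, against 65020 and 71575. All 7 kidney stroma genes were tested and 2 were lower, with sums of 341341 and 318249 in the RNAs labelled Bmp4cKO, against 395870 and 450951 in the RNAs labelled control. The ureteric mesenchyme genes other than Tbx20 were tested and 1, Tbx18, was higher. Their sums were 175995 and 145358 in the RNAs labelled Bmp4cKO, against 131517 and 147068 in the RNAs labelled control, with overlap. Tcf21, also on the kidney stroma list, gave 114825 and 79140 of these, against 79465 and 84575. The other lists were ureteric bud tip and collecting duct with 2 of 6 genes lower, neuron and Schwann cells with 3 of 8 lower, and mesothelium with 2 of 4 higher and 1 lower. No gene was called for endothelium, leukocytes or gonad and Wolffian duct, in which 4, 1 and 4 genes had an unadjusted p under 0.05 in limma. At that threshold 7.15% of all genes were higher and 7.37% lower. The part of these cell types in the differences of Stra6, Rbp4 and the CRABP genes was not tested. In whole ureters, fewer cells of a type and less RNA per cell cannot be told apart.

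Promoter sequences show which of these genes carry the letters that RAR and RXR pairs read close to their start. RefSeq windows of build GRCm38.p6, from 250 bases before to 50 after a start site, were at hand for 8 of the 9 genes, with 18 windows in all and none for Crabp2. The pair searched was GTTCA, 6 bases of any kind and GTTCA again, on both strands. It was in the Rarb window, beginning 52 bases before the start site, and in 0.0761% of all 32851 windows. This strict form allows GTTCA alone as its unit, the spelling that the Rarb window holds. Its low share is therefore no measure of how rare such pairs are, and the match is no test. Looser pairs had the unit GNTCA on each side, with 6 bases between (which includes the pair above, in 0.861% of all windows), 3 bases between (1.12%) or 2 bases between (1.26%). Among the 8 genes the form with 6 bases matched in Rarb alone and the other forms matched in none. The single repeat units GGTCA and GTTCA are common, in 40.5% and 35.2% of all windows, and overlap with the pairs. Windows are shown for Rarb, for Stra6, the gene that passed, and for Rbp4, whose carrier protein STRA6 recognises, with these units in capitals on either strand (TGACC and TGAAC are the reverse). Stra6 has 4 start sites in the table and Rbp4 has 2, and the window with most units is shown, or the first on ties. Each runs 5′ to 3′ along the strand of its gene.
Rarb, chr14:16575427-16575726 (minus strand): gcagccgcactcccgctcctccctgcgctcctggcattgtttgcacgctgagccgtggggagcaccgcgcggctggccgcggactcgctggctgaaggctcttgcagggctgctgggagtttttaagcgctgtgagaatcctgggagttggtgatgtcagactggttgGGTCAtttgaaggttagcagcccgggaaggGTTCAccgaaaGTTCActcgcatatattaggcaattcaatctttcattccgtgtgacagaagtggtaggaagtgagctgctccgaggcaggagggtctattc
Stra6, chr9:58128838-58129137 (plus strand): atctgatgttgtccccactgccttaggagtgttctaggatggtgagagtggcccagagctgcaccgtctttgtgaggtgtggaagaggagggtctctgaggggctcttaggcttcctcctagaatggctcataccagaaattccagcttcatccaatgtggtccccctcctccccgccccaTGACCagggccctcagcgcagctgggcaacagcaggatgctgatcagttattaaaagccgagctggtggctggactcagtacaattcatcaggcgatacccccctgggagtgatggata
Rbp4, chr19:38125272-38125571 (minus strand): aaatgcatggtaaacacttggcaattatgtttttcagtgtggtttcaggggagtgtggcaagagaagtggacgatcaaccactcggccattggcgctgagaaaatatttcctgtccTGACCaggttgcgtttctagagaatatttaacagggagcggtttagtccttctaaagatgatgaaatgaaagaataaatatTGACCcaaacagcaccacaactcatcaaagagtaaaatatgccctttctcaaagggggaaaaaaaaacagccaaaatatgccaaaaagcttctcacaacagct
Rarb, with the paired units, had ratios of opposite sign on the 2 arrays on its brighter probe and negative ratios on its dimmer one, and Stra6, whose window shows 1 unit and no pair, had the largest difference in size of the 9 genes. A match is a run of letters and not a shown binding site, and the absence of one speaks only of this window.

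**Figure D5:**
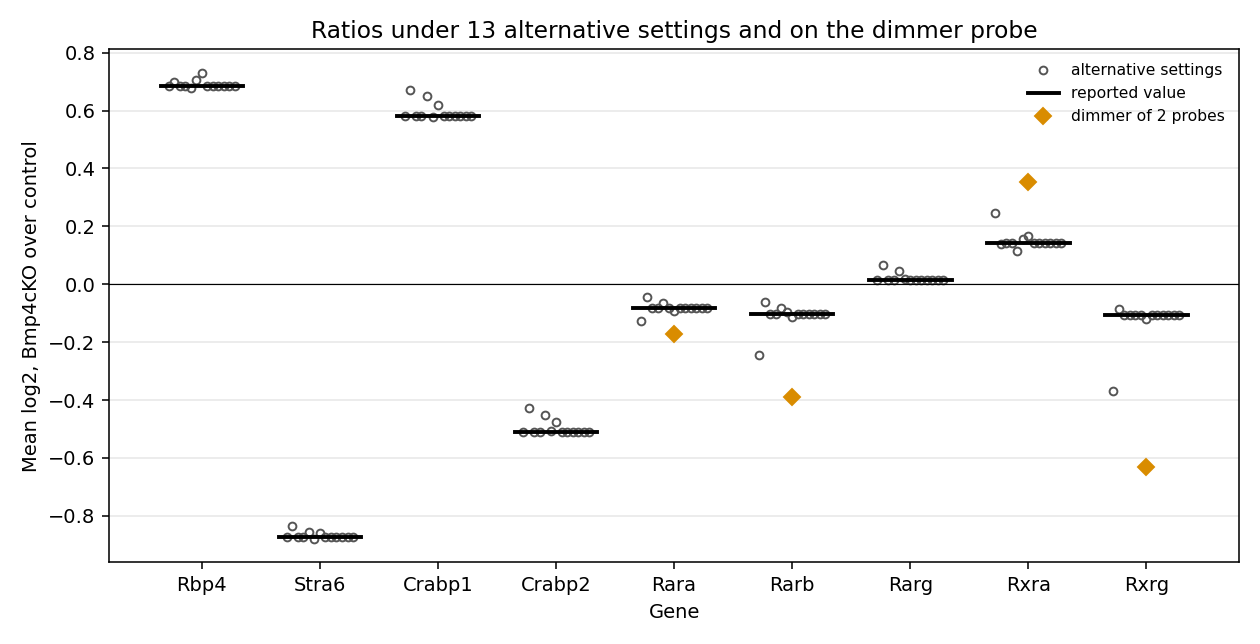
Mean log2 ratio of Bmp4cKO-labelled over control-labelled RNA for each of the 9 genes as reported (bars), under 13 alternative settings (open circles) and on the dimmer of 2 probes (orange diamonds, 4 genes). Stra6 stays between -0.88 and -0.84 and Rbp4 between 0.68 and 0.73, while Rxrg reaches -0.63 on its dimmer probe. Settings of filter, prior and model left each ratio as reported.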

How the data were processed

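Labelled RNA of 2 ureter RNA pairs was hybridised to 2 Agilent arrays with swapped dyes, from 200 ng of total RNA each per the labels' protocols. Per the file headers, the authors read the arrays with Feature Extraction 10.7.3.1, and the deposited spot and background values are linear intensities as scanned. The processed signals are intensities after that software's own normalization, and the log ratio is a log10 of red over green, per the file headers. The deposited value table holds a score per probe, found here to be a signed fold whose size matched the scanner's ratio within 0.01 (log2) for 99.7% of probes above background on array 1 and 99.6% on array 2. It follows red over green on array 1 and green over red on array 2, so its direction is opposite to the dye labels, and no source used here states it. Under its sign Bmp4 and Tbx18 were lower in Bmp4cKO, as given above.

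Background was corrected with normexp (offset 50) and ratios were normalized by loess within each array, giving control spots a weight of 0 (limma 3.58.1, R 4.3.3). Outlier spots, 231 and 235, were left out, and no probe spot was saturated. Median signal over background was 7.14 to 15.6 per channel, and the 2 arrays limit the precision. A probe passed if well above background in both RNAs of either label, and the brightest passing probe stood for a gene. Ratios were turned by the dye labels and fitted with lmFit and eBayes (1 residual and 4.03 prior degrees of freedom), with Benjamini-Hochberg adjustment over all genes and calls under 0.05. Normalised signals are single-channel values after loess and Aquantile, from which each array's ratio follows. The bound for a dim label sets the bright label's mean against the higher of the dim probe's signal and the lowest signal well above background on that array. It takes no account of the spread between arrays. The scripts were tested on simulated data. Gene names come from RefSeq (GRCm38.p6), with 31001 of 39429 probes matched. The genes and lists were chosen with earlier results of these data known. All 9 genes are named, and of each other list up to 4 called genes by size or else the 2 with the largest difference, while Cyp26a1 and Xist were chosen after their values were seen and some list genes are not reported here. With 2 ratios per gene, no genes were named for a similar pattern. The alternatives concern background correction, normalization, filter, prior, probes, model, left-out arrays and direction.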

Additional observations from a re-analysis of the deposited data

Results flagged for a closer look

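The 3 RAR genes had ratios of opposite sign on the arrays labelled female and male, as read on the brighter probe where a gene has 2. The dimmer probes of Rara (-0.25 and -0.09) and of Rarb (-0.27 and -0.51) kept their sign. On the brighter probes, array 2 minus array 1 was 0.34 for Rara, -0.48 for Rarb and 0.11 for Rarg on the log2 scale. The difference between the arrays was not tested, since each sex label has 1 array and cannot be told apart from the dye orientation. The RNAs of array 2, both labelled male, also differed in Xist, at 3757 where labelled Bmp4cKO against 232 where labelled control. The part of a sex difference within that array in its ratios was not tested. A fit of red over green, which carries the same difference, called 0 of all genes (limma adjusted p under 0.05), and its residual holds the genotype difference.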

How the results depend on the processing

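Every ratio of the 9 genes kept its sign under the 13 alternatives to background correction, normalization, filter, prior, probes and model, and only the calls of Stra6 and Rbp4 moved. The alternatives of filter, prior and model returned the reported ratio of each gene and were no check of its sign. Only those of background correction and normalization, and the mean of passing probes where a gene has 2, changed a ratio. Stra6 was -0.86 with processed signals (limma adjusted p = 0.051), -0.84 with median centring (0.40), -0.86 with no normalization (1.00), and -0.87 with separate channels, no replicate block (0.091), or with a dye term in place of the block (0.092). Each array is a pair, and separate channels with a replicate block gave -0.87, as reported. The count of the 9 genes called lower was 1 as reported and 0 in these 5 settings, and 1 was called higher with a trended prior (Rbp4, 0.69). Over all genes 195 were higher and 225 lower as reported, 339 and 388 with plain background subtraction, 612 and 671 with a trended prior, 0 and 0 with median centring (1760 at an unadjusted p under 0.05) and 0 and 1 with no normalization. Of the other retinoid list genes 1 was called higher and 6 lower, 3 higher with a trended prior, and 0 and 0 with median centring or no normalization. At least 2-fold on both arrays were 127 higher and 136 lower, 223 and 258 with processed signals, and 32 and 85 with no normalization. On single arrays, which allow no test, the range was 170 to 414 higher and 233 to 339 lower. On single arrays Rara ranged between -0.25 and 0.088 (without array 1), Rarb between -0.34 and 0.14 (without array 2), and Rarg between -0.041 (without array 2) and 0.070, so their signs rest on 1 array. With the sign of the authors' deposited table, Stra6 was at 0.87, Crabp2 0.51, Rara 0.082, Rarb 0.10, Rxrg 0.11, Rarg -0.015, Rxra -0.14, Crabp1 -0.58 and Rbp4 -0.69, with 1 of the 9 genes called higher and 0 lower, and 6 and 1 of the other retinoid genes. Some list medians moved, the RXR partners' (0.09) to -0.11 without array 2, the synthesis and breakdown genes' (-0.34) to -0.11 with no filter on dim probes, the response genes' (-0.17) to -0.35 and the other binding proteins' (0.19) to 0.43 without array 1, and the coregulators' (-0.089) to 0.012 with the mean of passing probes and to -0.047 without array 1. The cause was not tested. The dimmer probes, an alternative chosen after seeing the data, changed no sign and no call.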
